A study of Mus musculus with 21 samples.

Results

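Polycomb repressive complex 2 (PRC2) was followed through 10 of its genes, Phf19, Mtf2, Phf1, Ezh1, Ezh2, Suz12, Eed, Jarid2, Rbbp4 and Rbbp7. They were taken by gene symbol from the QuantSeq table of 55421 genes, and all 10 were among the 11554 genes with a mean above 1 in counts per 1000000 reads (CPM) that entered the tests. The group was selected on measured values, namely those of Phf19 in the libraries labelled sgZbtb1 and sgCont, which had singled out that gene. Its differences in comparisons with either group are therefore given as a description, without a p-value, and so are those of the other members between sgZbtb1 and sgCont.

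The study asked how the transcription factor Zbtb1 and the corepressors Cbfa2t2 and Cbfa2t3 act with Lmo2 in lymphoid progenitors (LP). All cells came from a C57BL6/J LP line that lacks Ebf1 and was kept on OP9 stromal cells with SCF, IL-7 and Flt3L. Cells carrying Cas9 with GFP were given an hNGFR marker with sgRNAs to luciferase (sgCont) or with a pool of 2 sgRNAs to 1 target, which was Zbtb1, Cbfa2t3, Cbfa2t2 or Lmo2. Sorted GFP+hNGFR+ cells gave 3 QuantSeq libraries for each of 5 conditions, and ChIP of Zbtb1 and Cbfa2t3 in LP cells without an sgRNA label gave 1 peak list per factor from 2 replicates. The cells are thus 1 line held before the B-lineage by the loss of Ebf1, and the sgRNA samples were bulk pools rather than clones.

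PRC2 methylates histone H3 at lysine 27, a mark of repressed developmental genes, through Ezh2 or its paralog Ezh1. Suz12 and Eed form its core together with the histone-binding proteins Rbbp4 and Rbbp7. Mtf2, Phf1 and Phf19, the Polycomblike proteins, are alternative subunits that help bring the complex to chromatin, and Jarid2 belongs to a different assembly of it. In the lymphoid lineages PRC2 is known for keeping alternative fates silent while progenitors divide and rearrange their receptor genes.

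The 15 libraries held 1705416 to 2095447 reads, so that 3 reads corresponded to 1.43 to 1.76 CPM. QuantSeq reads 1 tag near the 3′ end of a transcript, and CPM is not divided by length. A 3′ tag can remain after an edit that removes the protein, so the targeted mRNA does not check the labels. Zbtb1 was at 94.4 to 113 CPM in the libraries labelled sgZbtb1 against 55.7 to 66.6 in sgCont, Cbfa2t3 at 340 to 364 against 172 to 210 and Cbfa2t2 at 16.4 to 25.5 against 11.0 to 12.3, while Lmo2 overlapped, at 8.48 to 24.4 against 15.8 to 23.2. Of the progenitor markers, Flt3 was at 193 to 285 CPM, Il7r at 118 to 216 and Cd34 at 225 to 378 in all libraries. Ptprc was at 362 to 513 CPM, Notch1 at 112 to 206 and Dntt at 50.9 to 131. Kit was lower, at 6.87 to 25.4 CPM, as was Lmo2, at 8.48 to 24.4, while Rag1 and Rag2 stayed below 6.39. In the marker lists for other lineages and for OP9 stroma, some genes were at 0 to 0.57 CPM and are named for being low. They include Cd3e and Cd8a (T-lineage), Cd79a (B-lineage), Elane and Cd14 (myeloid), Hbb-bs (erythroid) and Dcn, Lum and Col3a1 (OP9 stroma). Other genes of those lists were present. Of the T-lineage list, Thy1 was at 137 to 397 CPM, Lck at 39.8 to 95.9, Bcl11b at 4.30 to 29.4, Il2ra at 0 to 10.5 and Tcf7 at 0 to 5.21. Of the remaining lists, Cebpa was at 3.83 to 21.5, Itgam at 2.74 to 14.5, Mpo at 0 to 20.2, Pax5 at 0 to 18.1 and Pdgfrb at 0.478 to 10.7.

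The peak lists named 5 of the PRC2 genes as nearest genes. The list of 5898 Zbtb1 peaks named Eed, Ezh2 and Suz12 as nearest genes, with 1 peak each close to the start. The list of 6077 Cbfa2t3 peaks named Phf19 and Jarid2, with 1 distal peak each. For these 3 of 10 and 2 of 10 members the background is the share of all genes tested that a list names, which was 26.8% for Zbtb1 and 20.5% for Cbfa2t3. The members' counts are near it, so no pattern is read from them. By position rather than by name, 6 Zbtb1 peaks lay inside a member or within 10 kb of it, 1 of them in Phf19 and 2 in Jarid2. The central 200 bases of the pair of Cbfa2t3 peaks and of the highest-scoring Zbtb1 peak at a member are shown because they are the sites at which these lists touch PRC2 genes. Sequences are from GRCm38, the build of mm10, on the plus strand, with matches on either strand to any of 5 short motifs in capitals. The motifs searched were TGTGGT (the core read by Runx factors), TGGTGGT (a Zbtb-type core), CAGCTG and CAGATG (E-boxes, read by bHLH factors) and AGATAA (read by GATA factors). 
Phf19 Cbfa2t3: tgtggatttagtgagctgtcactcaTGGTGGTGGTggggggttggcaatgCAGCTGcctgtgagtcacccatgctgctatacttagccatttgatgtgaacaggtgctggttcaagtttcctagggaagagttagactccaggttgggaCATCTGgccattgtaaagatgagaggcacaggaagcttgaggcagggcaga
Jarid2 Cbfa2t3: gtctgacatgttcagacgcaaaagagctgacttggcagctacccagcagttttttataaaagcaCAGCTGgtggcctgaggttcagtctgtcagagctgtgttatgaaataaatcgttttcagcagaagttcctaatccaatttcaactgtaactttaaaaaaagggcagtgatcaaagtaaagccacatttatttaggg
Eed Zbtb1: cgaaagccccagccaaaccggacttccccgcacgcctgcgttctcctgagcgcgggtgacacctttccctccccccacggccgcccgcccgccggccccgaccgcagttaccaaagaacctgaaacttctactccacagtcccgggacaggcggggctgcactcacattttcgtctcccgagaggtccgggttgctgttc

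The peak near Phf19, at chr2:34920257-34920635, was the highest-scoring of the 5. It lay in intergenic sequence upstream of Phf19, at -6470 bases from the start given in the list, with the start of the next coding gene, Traf1, 41.3 kb away. Its score of 70.7 was above 84.5% of the Cbfa2t3 peaks. The window shown, chr2:34920347-34920546, held CAGCTG once, a match to CAGATG on the minus strand (capitals CATCTG) and overlapping matches to TGGTGGT. In the 6070 Cbfa2t3 windows of this length on the main chromosomes, CAGCTG was present in 47.4%, CAGATG in 30.5% and TGGTGGT in 7.02%, so that the last was the least frequent of these. Neither TGTGGT (43.7% of windows) nor AGATAA (6.47%) was in it, and it held 0 CpG dinucleotides at 51.5% GC.

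Further peaks lay around Phf19 although the lists give them to other genes. A Zbtb1 peak at chr2:34893960-34894330, with a low score of 19.4, fell in the 3′ UTR in exon 15 of 15 of Phf19 and was listed under Cutal. Farther upstream a Zbtb1 peak (score 32.5) and a Cbfa2t3 peak (score 40.6), centred at -25.1 and -24.8 kb from the Phf19 start, overlapped each other by 30 bp and were both listed under Traf1. No Zbtb1 peak was centred closer to the Phf19 start than the one in the 3′ UTR, 19.9 kb away.

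The other Cbfa2t3 peak, at chr13:44819476-44819854, was in intron 1 of Jarid2, 88394 bases downstream of its start in the list. It scored 27.6, below the Cbfa2t3 median of 33.2. Its window, chr13:44819566-44819765, had CAGCTG as its single match to the 5 motifs, 40.5% GC and 2 CpG dinucleotides. A Zbtb1 peak with a score of 32.0 lay in the same intron 3.98 kb from the Jarid2 start but was listed without a gene symbol, and another, with a score of 23.9, fell in a Jarid2 exon and was listed under Dtnbp1.

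The Zbtb1 peaks at Eed, Ezh2 and Suz12, genes of the catalytic core, were all within 1 kb of a start, where 45.1% of all Zbtb1 peaks lay. The Eed peak, chr7:89980160-89980530, was in intron 1 at 631 bases from the start, in a CpG island, with a score of 45.9. The Ezh2 peak, chr6:47594734-47595104, was in the 5′ UTR of exon 1 at 111 bases, with a score of 35.1. The Suz12 peak, chr11:79993267-79993637, was in exon 1 at 346 bases, with a score of 30.8. All 3 scored above the list's median of 28.0, at the 72.4, 61.4 and 55.0 percentiles. Their central 200 bases were rich in GC, at 66.0%, 79.0% and 80.0%, with 19, 38 and 35 CpG dinucleotides, and none held a match to the 5 motifs, which were present in 4.31% (AGATAA) to 41.3% (TGTGGT) of 5890 Zbtb1 windows. In the Eed window, chr7:89980246-89980445, 34 bases are exonic and 0 are in a UTR.

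**Figure D1:**
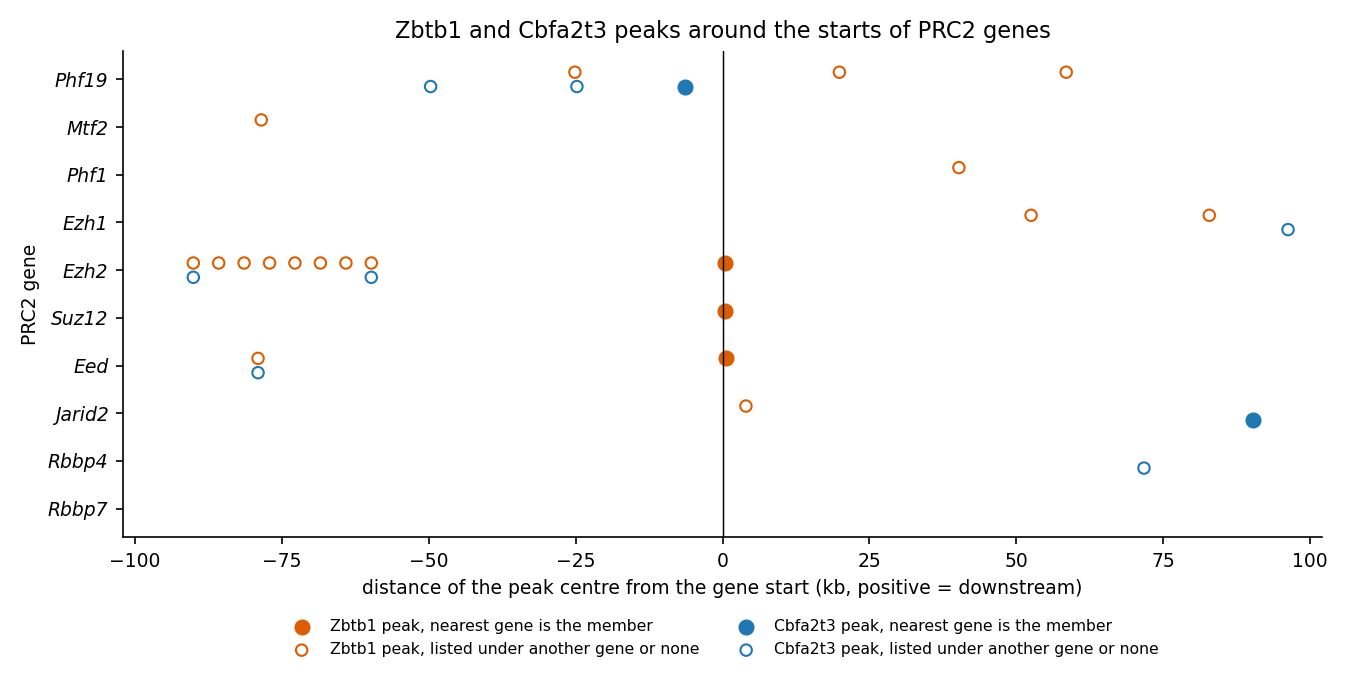
Zbtb1 (orange) and Cbfa2t3 (blue) peak centres within 100 kb of the start of each PRC2 gene, in kb with downstream positive. Filled points are peaks whose nearest gene in the list is that member, and open points are listed under another gene or none. The filled Zbtb1 points are at the starts of Ezh2, Suz12 and Eed, and the filled Cbfa2t3 points are upstream of Phf19 and far downstream of the Jarid2 start.

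No peak of one factor at a member overlapped a peak of the other. Of all Zbtb1 peaks 25.2% overlapped a Cbfa2t3 peak by at least 1 bp. From the Zbtb1 peaks at Eed, Ezh2 and Suz12 the nearest Cbfa2t3 peaks were 79.7, 60.2 and 323 kb away, and from the Cbfa2t3 peak at Phf19 the nearest Zbtb1 peak was 18.7 kb away. For Mtf2, Phf1, Ezh1, Rbbp4 and Rbbp7 neither list held a peak, and within 100 kb of the Rbbp7 start there was none under any name. The lists carry no value per replicate, so that no error can be given for a score.

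The PRC2 genes spanned a wide range of levels. Over the 15 libraries Rbbp4 had the highest mean, 608 CPM, followed by Suz12 at 377, Ezh2 at 362 and Rbbp7 at 235 CPM. Jarid2 and Mtf2 were near each other at 158 and 150 CPM, and Eed stood at 67.6 CPM. Ezh1 (20.0 CPM), Phf19 (10.4 CPM) and Phf1 (10.4 CPM) were the rarest. The order depended on the condition. In sgCont no neighbours overlapped, with Suz12 at 383 to 385 CPM above Ezh2 at 328 to 360, Jarid2 at 167 to 175 above Mtf2 at 139 to 163, and Ezh1 at 20.26 to 26.97 above Phf1 at 7.55 to 15.8 and Phf19 at 2.31 to 6.45. In sgZbtb1 Suz12 (375 to 393) overlapped Ezh2 (328 to 387), Jarid2 (118 to 148) overlapped Mtf2 (141 to 153), and Phf19 (11.7 to 30.0) overlapped Ezh1 (18.2 to 20.1).

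**Figure D2:**
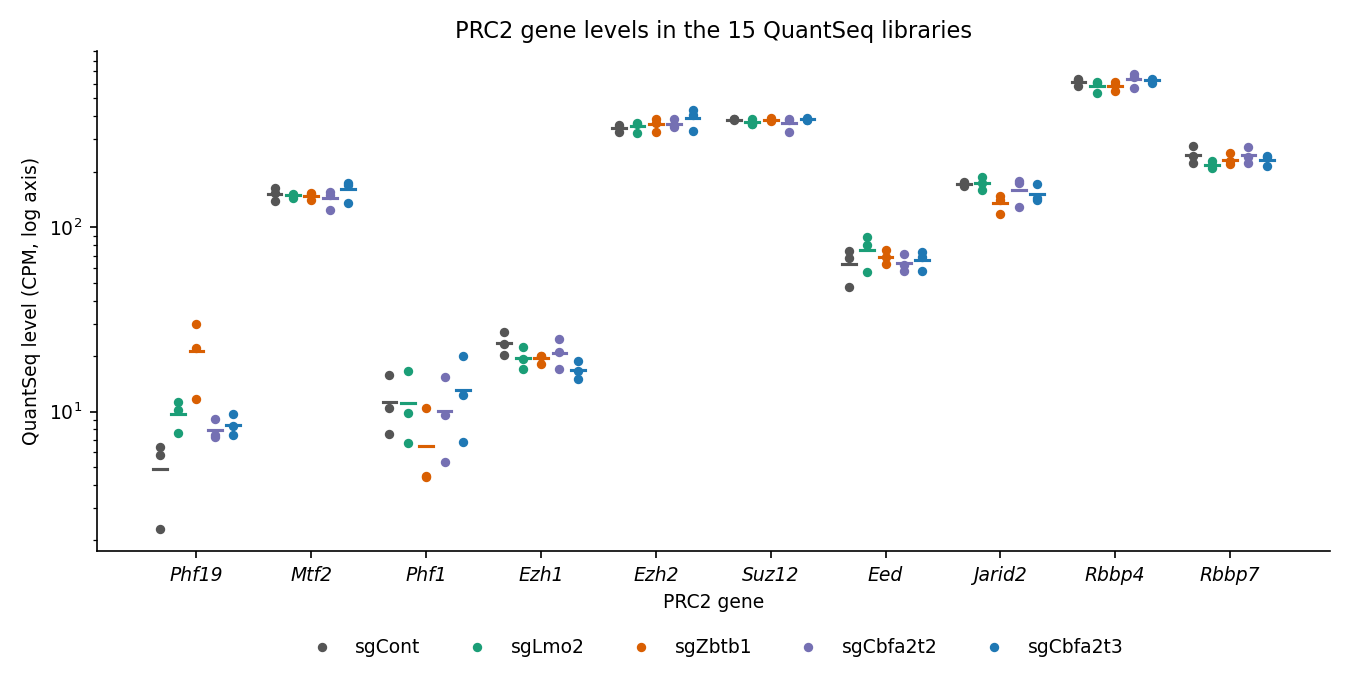
Level of each PRC2 gene in CPM on a log axis, with 1 point per library, coloured by condition, and a bar at the mean of 3 libraries. Phf19 spread from 2.31 to 30.0 CPM, with its 3 sgZbtb1 libraries at the top, while Suz12 stayed between 329 and 393 CPM.

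Phf19 was lowest in sgCont and highest in sgZbtb1. In the 3 sgCont libraries it was at 5.81, 2.31 and 6.45 CPM, which are 4 to 11 reads. In the libraries labelled sgZbtb1 it was at 11.7, 22.0 and 30.0 CPM, or 21 to 61 reads. All 3 sgZbtb1 values were above those of the other 12 libraries, although the lowest of them, 11.7 CPM, was close to the highest sgLmo2 value of 11.2 CPM. In bulk samples such as these, fewer cells of a type and less RNA per cell cannot be told apart.

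The other conditions were intermediate and close together. Phf19 was at 10.2, 11.2 and 7.67 CPM in sgLmo2. It was at 7.45, 9.07 and 7.24 CPM in sgCbfa2t2 and at 9.65, 7.42 and 8.31 CPM in sgCbfa2t3. Each of these groups was above all 3 sgCont libraries and overlapped the others. The means were 21.2 ± 9.13 CPM in sgZbtb1, 9.70 ± 1.84 in sgLmo2, 8.46 ± 1.12 in sgCbfa2t3, 7.92 ± 0.998 in sgCbfa2t2 and 4.86 ± 2.23 in sgCont (SD, n = 3).

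On the scale of log2(CPM + 1), which understates the change of a gene this rare, Phf19 was 1.92 (SE 0.39) higher in sgZbtb1 than in sgCont, and its ratio of mean CPM was 4.37. It was 0.94 (SE 0.39) higher in sgLmo2, 0.77 (SE 0.39) in sgCbfa2t3 and 0.69 (SE 0.39) in sgCbfa2t2. These differences rest on the same 3 sgCont libraries. Without sgCont replicate 2, which held 4 Phf19 reads, they were 1.55, 0.57, 0.40 and 0.32, and against the 9 sgLmo2, sgCbfa2t2 and sgCbfa2t3 libraries the sgZbtb1 difference was 1.12. Of all genes tested, 10.1% had their 3 sgZbtb1 libraries above the 3 sgCont libraries, and 5.62%, 6.7% and 6.88% had the same order in sgLmo2, sgCbfa2t3 and sgCbfa2t2.

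Phf19 was tested between the groups that had not singled it out, although the fit over 15 libraries takes its spread from all groups, sgCont and sgZbtb1 included. By limma with Benjamini-Hochberg adjustment over the 11554 genes, its differences between sgLmo2, sgCbfa2t2 and sgCbfa2t3 did not pass. sgLmo2 was 0.25 above sgCbfa2t2 (95% interval -0.52 to 1.03, adjusted p = 0.938) and 0.17 above sgCbfa2t3 (-0.61 to 0.94, adjusted p = 0.934), and sgCbfa2t2 minus sgCbfa2t3 was -0.08 (-0.86 to 0.69, adjusted p = 0.991). The width of these intervals reflects that shared spread. With limma on the 6 libraries of each pair alone, the adjusted p-values were 0.934, 0.936 and 0.992.

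Mtf2 supplied most of the Polycomblike mRNA in every condition. It was at 139 to 163 CPM in sgCont and 141 to 153 CPM in sgZbtb1, and those ranges overlapped. Phf1 varied from 4.42 to 19.9 CPM within and between conditions. In sgZbtb1 it was at 4.47, 10.5 and 4.42 CPM against 7.55, 10.4 and 15.8 CPM in sgCont, groups that overlapped. The summed level of Phf19, Mtf2 and Phf1 was 168 ± 16.4 CPM in sgCont and 176 ± 10.3 CPM in sgZbtb1 (SD, n = 3), so that it moved by less than its spread.

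Within this family the Phf19 share was 2.89 ± 1.30% in sgCont, 5.71 ± 1.02% in sgLmo2, 4.91 ± 0.384% in sgCbfa2t2, 4.67 ± 0.647% in sgCbfa2t3 and 11.9 ± 4.55% in sgZbtb1 (SD, n = 3). By library it was 7.02, 12.7 and 16.0% in sgZbtb1 and 1.4 to 3.8% in sgCont. Mtf2 still made up 84.4 ± 5.13% in sgZbtb1, against 90.5 ± 2.26% in sgCont. The shares describe the same reads that singled out Phf19 and are no separate observation.

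**Figure D3:**
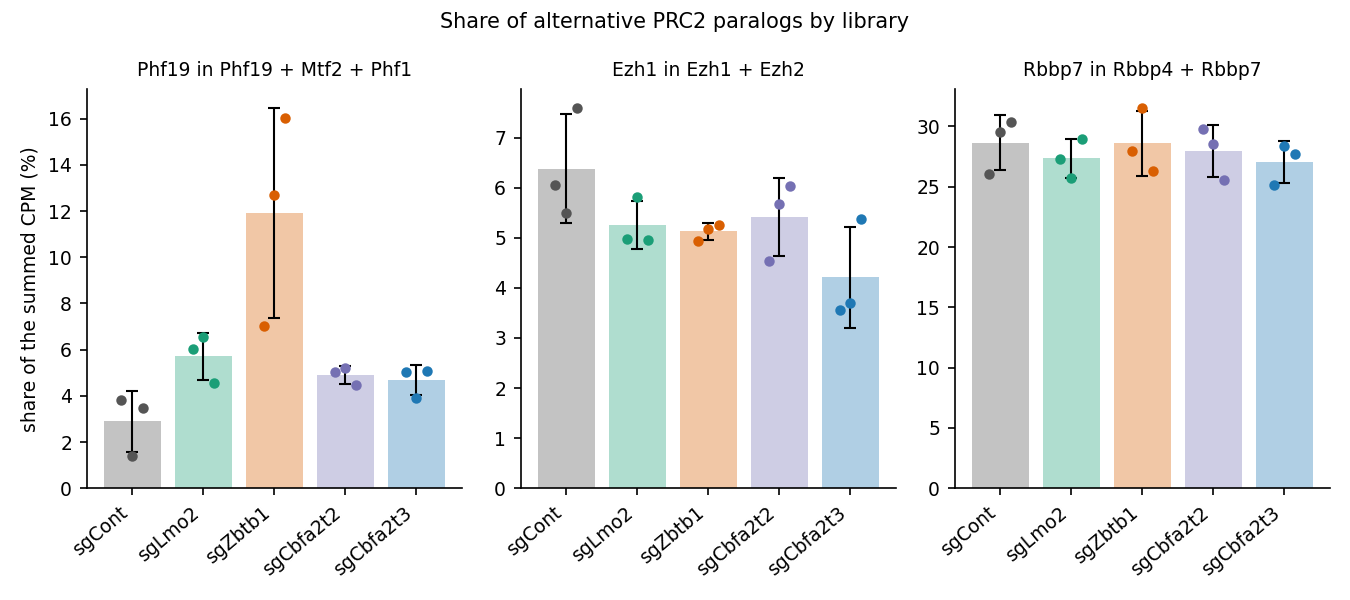
Share of the summed CPM of 3 groups of PRC2 paralogs that came from Phf19, Ezh1 or Rbbp7, in percent, with bars at the mean, error bars of 1 SD and 1 point per library (n = 3). The Phf19 share was 11.9% in sgZbtb1 and 2.89% in sgCont, the Ezh1 share was lowest in sgCbfa2t3 at 4.21%, and the mean Rbbp7 share was between 27.1% and 28.6%, with libraries from 25.1% to 31.5%.

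Of the catalytic subunits, Ezh2 carried nearly all of the mRNA. It was at 360, 349 and 328 CPM in sgCont and 387, 367 and 328 CPM in sgZbtb1, and in sgCbfa2t3 it reached 406, 431 and 332 CPM. Its groups overlapped in every comparison. Ezh1, which is better known from resting cells, was at 23.23, 20.26 and 26.97 CPM in sgCont. In sgCbfa2t3 it was at 15.01, 16.56 and 18.83 CPM and in sgZbtb1 at 20.1, 20.1 and 18.2 CPM, all below the lowest sgCont value.

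The Ezh1 difference was -0.46 (SE 0.27) in sgCbfa2t3 and did not pass (limma, adjusted p = 0.570). It was -0.25 (SE 0.27) in sgZbtb1. Of all genes tested, 9.06% had their 3 sgCbfa2t3 libraries below sgCont and 12.8% their 3 sgZbtb1 libraries. The Ezh1 share of Ezh1 and Ezh2 together was 6.38 ± 1.09% in sgCont and 4.21 ± 1.01% in sgCbfa2t3 (SD, n = 3).

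Suz12, the scaffold of the complex, was the steadiest member by coefficient of variation. Counting alone makes that measure larger for rarer members, such as Ezh1 (16.2%, with 16.4% from counting). In sgCont Suz12 was at 383, 384 and 385 CPM and over all libraries its coefficient of variation was 4.13%, close to the 3.77% that counting alone gives. Its single low value was 329 CPM in sgCbfa2t2 replicate 1. Eed, which reads the H3K27 mark, ranged from 47.5 to 88.2 CPM, and both extremes lay in conditions that overlapped, sgCont and sgLmo2. Rbbp4, at 531 to 681 CPM, and Rbbp7, at 209 to 275 CPM, overlapped between all conditions, with a Rbbp7 share of the pair of 25.1 to 31.5% over the libraries and 27.1 to 28.6% over the condition means.

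Jarid2 was lower in the libraries labelled sgZbtb1. It was at 118, 141 and 148 CPM there against 167, 174 and 175 CPM in sgCont, without overlap. The same order, all sgZbtb1 libraries below sgCont, was found for 12.8% of all genes tested. The Jarid2 difference was -0.34 (SE 0.12), from means of 136 ± 15.6 and 172 ± 4.04 CPM (SD, n = 3). In sgCbfa2t3 it was at 144, 172 and 140 CPM and in sgCbfa2t2 at 129, 178 and 173 CPM, which overlapped sgCont, and in sgLmo2 at 159, 173 and 186 CPM.

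**Figure D4:**
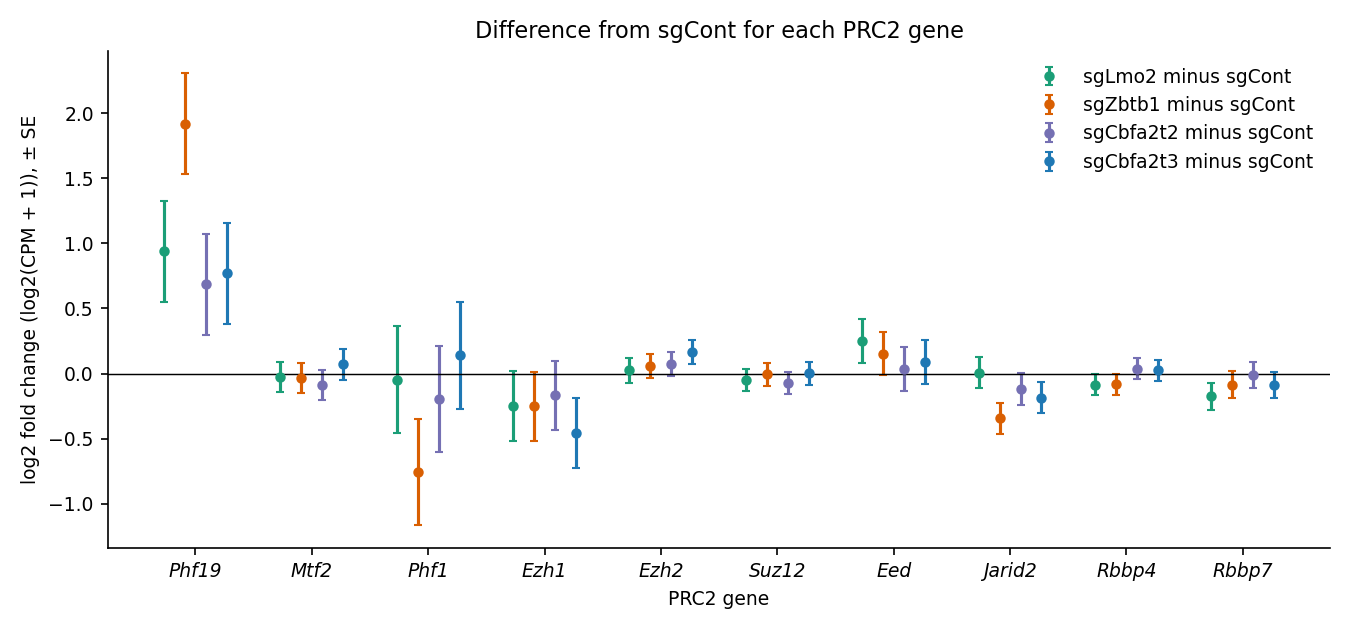
Difference of each PRC2 gene from sgCont on the log2(CPM + 1) scale, with bars of 1 SE from the fit over 15 libraries and 1 colour per sgRNA. Phf19 is the sole gene with all 4 points above 0.6, at 0.69 to 1.92, and Jarid2 in sgZbtb1 is at -0.34.

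In sgZbtb1 against sgCont 4.79% of all genes had an adjusted p under 0.05. This contrast singled out Phf19, so no count of members is read there. The other 9 members had differences from -0.76 to 0.15, with a median of -0.08 beside -0.03 over all genes tested. In sgCbfa2t3, sgCbfa2t2 and sgLmo2 against sgCont 0 of the other 9 passed by limma, where 0.537%, 0.147% and 0.0173% of all genes passed. An unadjusted limma p under 0.05 was found for 0 of the 9 in each. Of all 11554 genes, 1224, 1105 and 653 had one, so nothing is read from these counts. The differences of the 9 ran from -0.46 to 0.16, from -0.20 to 0.07 and from -0.25 to 0.25. edgeR and DESeq2 on the recovered reads also called 0 of these 9.

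Between the sgRNAs themselves 0 of 10 members passed by limma in sgLmo2 against sgCbfa2t2 (0.234% of all genes called), sgLmo2 against sgCbfa2t3 (0.736%) and sgCbfa2t2 against sgCbfa2t3 (0.0779%). With so few genes called in these comparisons a count of 0 among 10 members is near the background. An unadjusted limma p under 0.05 was found for 0 of 10 in each. Of all 11554 genes, 817, 1161 and 716 had one, so nothing is read from that count either. The data limit a difference more closely for abundant members than for rare ones. In sgCbfa2t3 against sgCont the 95% interval was -0.17 to 0.17 for Suz12, -0.14 to 0.19 for Rbbp4 and -0.02 to 0.35 for Ezh2. It was -0.29 to 0.12 for Rbbp7 and -0.42 to 0.05 for Jarid2, but -0.68 to 0.96 for Phf1.

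As a description, Pearson's r of log2(CPM + 1) between Phf19 and the other 9 ran from -0.41 (Jarid2) to 0.19 (Eed) over 15 libraries that share their conditions and depth and include those in which Phf19 was singled out. Among 8156 genes with a mean above 10 CPM the most alike were Ccdc15 (r = 0.85), 3110082I17Rik (0.85), Thyn1 (0.84), Gm49336 (0.83) and Ly9 (0.83). These genes were picked for their likeness over libraries that include those in which Phf19 was singled out, so nothing further is read from it.

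The other Polycomb genes were measured as whole lists, and their tests use the same libraries. Of 5 further PRC2-associated genes tested, 0 passed in any of the 4 comparisons with sgCont. Of 24 PRC1 genes, 1 rose and 1 fell in sgZbtb1, which is 8.33% beside 4.79% of all genes. In sgCbfa2t3, sgCbfa2t2 and sgLmo2 0 passed, near the shares of all genes of 0.537%, 0.147% and 0.0173%. Yaf2, a subunit of variant PRC1, rose by 0.68 on the log2 scale (SE 0.19, limma adjusted p = 0.0190), and Phc3, a Polyhomeotic subunit, fell by 0.70 (SE 0.20, adjusted p = 0.0274). The Yaf2 call was lost without any one of sgCont replicate 1 or 3 and sgZbtb1 replicate 1 or 2 (adjusted p = 0.0592 to 0.120), and the Phc3 call without sgCont replicate 2 or 3 or sgZbtb1 replicate 3 (0.119 to 0.185). With all genes above 0 tested both calls were lost (Yaf2 0.0901, Phc3 0.0571), as they were against the 9 libraries of the remaining sgRNAs, where Yaf2 was at 0.48 (limma adjusted p = 0.0559) and Phc3 at -0.27 (0.456). Of 10 genes of the PR-DUB deubiquitinase and 7 H3K27 demethylases and H3K36 methyltransferases, 0 passed in those comparisons.

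Of 20 loci known as Polycomb targets in other cells, 10 were expressed enough to be tested, and in sgZbtb1 1 rose, 2 fell and 7 did not pass, where 4.79% of all genes passed. Cdkn1a, a cyclin-dependent kinase inhibitor, rose by 0.46 (SE 0.09, limma adjusted p = 0.000496). Id2, an inhibitor of bHLH factors, fell by 0.60 (SE 0.13, adjusted p = 0.00183), and Hoxa9, a homeobox gene of progenitors, fell by 0.36 (SE 0.08, adjusted p = 0.00251). The Id2 call was lost without sgZbtb1 replicate 1 (adjusted p = 0.0654) or sgCont replicate 2 (0.0503). The median over the 10 was 0.30, beside -0.03 over all genes tested, and 9 of the 20 loci, among them Gata2, Meis1 and Tbx21, were at 0 in all 15 libraries. In sgCbfa2t3, sgCbfa2t2 and sgLmo2 0 of the 10 passed, where 0.537%, 0.147% and 0.0173% of all genes did.

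Markers of lineage also moved in sgZbtb1. The 10 listed T-lineage markers summed to 415 to 446 CPM in sgCont, to 183 to 259 in sgZbtb1, 296 to 332 in sgCbfa2t3, 345 to 394 in sgCbfa2t2 and 469 to 509 in sgLmo2. Thy1 and Lck carried most of this sum, which was not tested, and in sgCbfa2t2 and sgLmo2 0 of the 5 markers tested passed. Cd8a was at 0 in all libraries, and 3 of the 5 tested fell in sgZbtb1: Thy1 by 1.03 (SE 0.11), Lck by 0.87 (SE 0.16) and Bcl11b by 1.82 (SE 0.36; limma adjusted p = 6.49e-11, 0.000116 and 0.000453). Thy1 also fell in sgCbfa2t3, by 0.48 (SE 0.11, adjusted p = 0.0140), a call lost without sgCont replicate 2 (0.113) or sgCbfa2t3 replicate 1 (0.149), or with all genes above 0 tested (0.138). Against the 9 libraries of the remaining sgRNAs, sgZbtb1 among them, the Thy1 difference was -0.16 (adjusted p = 0.834). Of 10 progenitor markers Cd34 rose by 0.53 (SE 0.11, limma adjusted p = 0.00107, but 0.0612 by DESeq2), while Kit fell by 1.14 (SE 0.32, adjusted p = 0.0205) and Ptprc by 0.28 (SE 0.09, adjusted p = 0.0393). The Kit call was lost without any one of replicates 2 and 3 of either group (limma adjusted p up to 0.148), and the Ptprc call without any one of the 3 sgZbtb1 libraries or sgCont replicate 1 or 2 (up to 0.222), with median-of-ratios factors (0.0583) or by edgeR (0.0672). With all genes above 0 tested both were lost (Kit 0.0782, Ptprc 0.0794), and against the 9 libraries of the remaining sgRNAs Kit was at -0.70 (limma adjusted p = 0.124) and Ptprc at -0.13 (0.364). Pax5, at 6.80 CPM in sgCont and 0.810 CPM in sgZbtb1, was the 1 B-lineage marker of 3 tested that fell. Of the 3 myeloid markers tested 0 passed in these comparisons. The part of these shifts in the Phf19 and Jarid2 values was not tested.

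Proliferation genes were measured because PRC2 levels are known to be high in dividing cells. Of 25 listed, 1 fell in sgZbtb1 and 1 rose in sgCbfa2t3, in both cases E2f2, a cell cycle transcription factor, at 48.7 ± 7.32 CPM in sgZbtb1, 150 ± 5.66 CPM in sgCbfa2t3 and 77.8 ± 4.83 CPM in sgCont (SD, n = 3; limma adjusted p = 0.00209 and 6.21e-05). That is 4.0% of the list in each, beside 4.79% of all genes in sgZbtb1 and 0.537% in sgCbfa2t3. The list's median differences were 0.12 in sgZbtb1 and 0.14 in sgCbfa2t3, beside -0.03 and -0.01 over all genes tested. Its summed level was 7631 to 7689 CPM in sgZbtb1 and 7721 to 7860 CPM in sgCbfa2t3 against 7084 to 7252 CPM in sgCont, and its part in the Phf19 and Jarid2 values was not tested.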

How the data were processed

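The deposited QuantSeq values, named TPM by the authors, are CPM: the authors trimmed reads with fastp, mapped them to mm10 with STAR and scaled gene counts to 1000000 per library, without division by length. The counter, and how it treated reads shared by copies of a gene, are not given in the sources used here. All values were whole multiples of 1 read (tolerance 0.1 reads), and reads were recovered from them. The peak score in the deposited lists is HOMER's normalized peak score against input, from reads the authors mapped with Bowtie 1.1.1, and each list holds peaks reproducible over 2 replicates with a score of at least 15. The lists also give the distance of each peak to the nearest start (other values were not used), and mm10 coordinates were read against GRCm38 and GENCODE vM21 with pysam 0.24.0.

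Genes with a mean above 1 were tested with limma 3.58.1 (trended eBayes) on log2(CPM + 1) in 1 fit over 15 libraries, with Benjamini-Hochberg adjustment over 11554 genes and a threshold of 0.05. The method was tested on simulated data. The study describes its replicates as independent. With 3 against 3 libraries an exact two-sided permutation test cannot go below 0.1, so the fit across genes was used. The design had been written for TPM, and the same test was kept for CPM. Alternatives were a pseudocount of 0.1, other filters, 6 libraries, a replicate block, median-of-ratios factors, edgeR 4.0.16 and DESeq2 1.42.0 on recovered reads, leaving out each library, another comparison group, and for peaks other scores, distances and overlaps. Counting error was taken as Poisson, and reads without molecular identifiers are not independent molecules.

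The members, gene lists and comparisons were chosen with earlier results of these data known. Named are all members, with differences where called or without overlap, the listed genes that passed in comparisons with sgCont (at most 4 per list and comparison) and the 5 genes most correlated with Phf19.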

Additional observations from a re-analysis of the deposited data

How the results depend on the processing

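In sgCbfa2t3, sgCbfa2t2 and sgLmo2 against sgCont 0 of the 9 members other than Phf19 were called under every alternative. Between these sgRNAs the count was 0 of all 10 members under every alternative. Few genes of the whole table were called in these comparisons, so nothing is read from counts of 0. In sgZbtb1 against sgCont, which selected the group and from which nothing is read, the count over all 10 was 1, and 2 with the replicate block. The main fit did not take the replicate numbers as pairs, which the correlations do not justify. In their deviations same-numbered libraries correlated by -0.01 to 0.07 (mean 0.028) and different-numbered ones by -0.06 to 0.03 (mean -0.014). Of 15 libraries, 14 correlated best with their own number. With the number as a block, genes called went from 554 to 709 in sgZbtb1, from 62 to 93 in sgCbfa2t3 and from 17 to 36 in sgCbfa2t2. What the numbers share is not given in the labels and was not tested. The Phf19 difference between sgZbtb1 and sgCont was 1.55 to 2.27 when 1 library was left out and 1.12 when the 9 sgLmo2, sgCbfa2t2 and sgCbfa2t3 libraries took the place of sgCont. With the 9 libraries of the remaining sgRNAs in place of sgCont, which for the others include sgZbtb1, Phf19 was -0.41 in sgCbfa2t3, -0.52 in sgCbfa2t2 and -0.19 in sgLmo2, and Ezh1 was 0.040 in sgZbtb1. Without sgCbfa2t3 replicate 1 the Phf19 difference between sgCbfa2t2 and sgCbfa2t3 turned to 0.0049, and the lowest value with 1 library left out was -0.17, without sgCbfa2t2 replicate 2. The Zbtb1 peaks at members numbered 6 when peaks inside a gene or within 10 kb of it were counted, and the Cbfa2t3 peaks numbered 1 with a score of at least 30 or within 10 kb of the start.

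Genes called over the whole table ranged from 306 (without sgZbtb1 replicate 3) to 709 (replicate block) in sgZbtb1, against 554, from 24 to 93 in sgCbfa2t3, against 62, from 0 to 36 in sgCbfa2t2, against 17, and from 1 to 14 in sgLmo2, against 2, with 201 for sgLmo2 when the 9 libraries of the remaining sgRNAs, sgZbtb1 among them, took the place of sgCont. Of the listed genes named, Yaf2, Phc3, Id2, Cd34, Kit and Ptprc in sgZbtb1 and Thy1 in sgCbfa2t3 lost their call under at least 1 alternative, with direction kept, and alternatives for these genes and for Phf19 between sgRNAs were added after seeing the data. The causes were not tested. Depth limits Phf19 and Phf1, with 4 to 61 and 8 to 36 reads per library.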
